A study of Homo sapiens with 12 samples.

Results

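The genes of MHC class I antigen presentation measured here were HLA-B, HLA-C, HLA-E and HLA-F, B2M, TAP1, TAP2, PSMB8 and PSMB9, taken by symbol from a table of raw RNA-seq counts. All 9 symbols were found among its 57500 rows, and all 9 passed the filter on low counts that left 16251 genes for testing. In irradiated senescent fibroblasts the heavy chains, the light chain and both peptide transporter subunits rose 1.69-fold to 2.84-fold over proliferating cells, whereas the catalytic subunits PSMB8 and PSMB9 were not called. With UK5099, an inhibitor of the mitochondrial pyruvate carrier, 7 of the 9 fell against untreated senescent cells, PSMB8 and PSMB9 among them, where 12.1% of all genes tested were called lower. The call of the scarce HLA-F among these 7 was lost when any of 3 libraries was left out. With CTPI2, an inhibitor of the mitochondrial citrate carrier SLC25A1, none was called, where 0.148% of all genes tested were called lower and 0.0185% higher.

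Every nucleated cell shows the immune system a sample of its own proteins on class I molecules. The immunoproteasome, in which PSMB8, PSMB9 and PSMB10 replace the constitutive catalytic subunits PSMB5, PSMB6 and PSMB7, cuts proteins into peptides. TAP1 and TAP2 form the pump that carries these peptides into the endoplasmic reticulum, where they are loaded onto a heavy chain paired with beta-2-microglobulin (B2M) and sent to the surface for CD8 T cells. HLA-B and HLA-C are classical heavy chains, HLA-E presents mainly leader peptides of other class I chains to natural killer cell receptors, and HLA-F is a nonclassical chain. Most of these genes are known to respond to interferon and to NF-kB.

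RNA came from MRC5 cells, which are human fetal lung fibroblasts, in 4 groups of 3 libraries. The groups were proliferating cells (Prol), cells made senescent by X-ray irradiation (Sen(IR)), and irradiated cells kept in UK5099 (Sen(IR)+UK5099) or in CTPI2 (Sen(IR)+CTPI2), both inhibitors being added on the day after irradiation according to the methods. No group is labeled as vehicle, and none is of proliferating cells with an inhibitor. Whether Prol and Sen(IR) cells received the solvent of the inhibitors is given neither in the labels nor in the methods. The study used CTPI2 at more than a single dose, and the dose behind these libraries is not given in the labels. By its methods, UK5099 was used at a higher concentration than either CTPI2 dose, so the inhibitors are not compared at equal concentrations. The labels do not mark the cultures the libraries of a group came from, while the captions of the study describe its RNA-seq samples as independent. The p-values set differences in group means against the spread between these libraries, and reach no further than these libraries. Total counts ran from 20597736 to 28245693 per library, with a median of 23650931.

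The 8 fibroblast markers examined, among them COL1A1, VIM and THY1, were detected in every library, and PTPRC, the pan-leukocyte marker, had 0 to 8 counts. The summed CPM of the fibroblast list (counts per 1000000 of the TMM-scaled library) was 10544 to 10987 under UK5099, against 20724 to 24516 in Prol, 19845 to 20411 in Sen(IR) and 17421 to 19191 under CTPI2. The 8 leukocyte markers summed to at most 0.343 CPM in a Prol library, and the sum was 3.19 to 4.17 for Sen(IR), 2.67 to 3.41 under UK5099 and 3.94 to 5.04 under CTPI2; CD14 was the only marker of that list to reach 1 CPM in any library. MS4A1, which marks B cells, and CD3E, which marks T cells, had at most 1 count in any library. The endothelial and epithelial lists, of 4 markers each, summed to at most 1.57 and 1.34 CPM. The mitochondrial share of a library's counts was highest under UK5099, at 3.81 to 4.23%, against 2.36 to 3.28% over the libraries of the other groups. The part of these shifts in the results given here was not tested. In bulk RNA, fewer cells of a type and less RNA per cell cannot be told apart.

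Apart from B2M on chromosome 15 (GRCh38, chr15:44711358-44718851), all 9 genes lie on chromosome 6, by the GENCODE annotation. HLA-F (chr6:29722775-29738528), HLA-E (chr6:30489509-30494194), HLA-C (chr6:31268749-31272130) and HLA-B (chr6:31353872-31367067) are spread over the class I region. TAP2 (chr6:32821833-32838739), PSMB8 (chr6:32840717-32844679), TAP1 (chr6:32845209-32853816) and PSMB9 (chr6:32844136-32859851) lie next to each other within the class II region. The RefSeq start site of PSMB9 and the upstream start site of TAP1 are 488 bases apart and read in opposite directions.

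RefSeq promoter windows (GRCh38.p14, 250 bases before to 50 after the start site) were matched for 8 of the 9 genes, all but HLA-E, in 10 windows, since TAP1 and PSMB8 have 2 start sites each. Shown are the windows of a heavy chain, the light chain and the divergent TAP1 and PSMB9 pair, because these genes differed in whether they rose in senescence. The windows of PSMB8, which was not called in senescence either, are not shown, and their matches are given below. Capitals mark matches, on either strand, to the interferon regulatory factor (IRF) motif AANNGAAA and to the NF-kB consensus. They are chr6:31357130-31357429 (minus strand) for HLA-B, chr15:44711267-44711566 (plus strand) for B2M, chr6:32853655-32853954 (minus strand) for the upstream start of TAP1, and chr6:32853942-32854241 (plus strand) for PSMB9.
HLA-B: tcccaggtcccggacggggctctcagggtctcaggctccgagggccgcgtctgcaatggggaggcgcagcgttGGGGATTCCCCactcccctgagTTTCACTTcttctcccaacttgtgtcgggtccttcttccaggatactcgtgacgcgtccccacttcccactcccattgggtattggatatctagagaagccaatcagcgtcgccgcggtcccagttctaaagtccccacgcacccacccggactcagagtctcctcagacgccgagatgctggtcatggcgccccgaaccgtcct
B2M: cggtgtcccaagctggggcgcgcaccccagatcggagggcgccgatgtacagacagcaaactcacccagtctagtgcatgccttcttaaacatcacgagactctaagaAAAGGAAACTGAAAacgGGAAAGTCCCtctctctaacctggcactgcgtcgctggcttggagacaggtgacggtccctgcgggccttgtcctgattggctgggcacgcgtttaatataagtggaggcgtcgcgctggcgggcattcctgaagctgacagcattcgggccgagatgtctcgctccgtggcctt
TAP1: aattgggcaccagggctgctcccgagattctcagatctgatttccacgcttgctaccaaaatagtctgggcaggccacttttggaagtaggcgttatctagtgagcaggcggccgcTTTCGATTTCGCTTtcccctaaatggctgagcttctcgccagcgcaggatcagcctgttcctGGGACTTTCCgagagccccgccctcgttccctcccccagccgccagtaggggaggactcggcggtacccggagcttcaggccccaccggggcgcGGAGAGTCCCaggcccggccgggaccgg
PSMB9: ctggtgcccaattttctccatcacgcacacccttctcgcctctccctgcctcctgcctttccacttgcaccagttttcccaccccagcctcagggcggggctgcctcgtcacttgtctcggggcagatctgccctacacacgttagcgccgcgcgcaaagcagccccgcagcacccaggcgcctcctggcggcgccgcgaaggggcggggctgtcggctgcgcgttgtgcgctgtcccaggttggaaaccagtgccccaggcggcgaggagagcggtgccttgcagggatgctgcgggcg

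An IRF motif match lay in 7 of the 10 windows, belonging to HLA-B, HLA-C, HLA-F, B2M, TAP1, TAP2 and PSMB8, against 22.8% of all 35116 promoter windows. In B2M, TAP1, TAP2 and the downstream PSMB8 start a pair of IRF matches overlapped each other. An NF-kB match was found in 4 windows (HLA-B, HLA-C, B2M and the upstream TAP1 start) against 11.3% of all windows, and the 2 matches in HLA-B overlap. The PSMB9 window held neither. The IRF matches of TAP1 (-134 to -121) and its NF-kB match at -72 to -63 lie between the TAP1 and PSMB9 start sites, beyond the PSMB9 window. PSMB8, like PSMB9 not called between Sen(IR) and Prol, held IRF matches at its downstream start. Among the other motifs searched on both strands, TGACG, the core of the cyclic AMP response element, lay in 6 of the 10 windows against 24.6% of all. CCAAT also lay in 6, against 34.6%. Its match at -249 to -245 of the upstream TAP1 start and that at -243 to -239 of PSMB9 are the same bases, since these windows overlap. GGGCGG, the GC box, lay in 7, against 45.0%. TTCNNNGAA, the gamma-activated site, lay in 2 (the downstream starts of TAP1 and PSMB8), against 7.66%. A match is a description of the letters in a window and was not tested as a binding site.

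**Figure D1:**
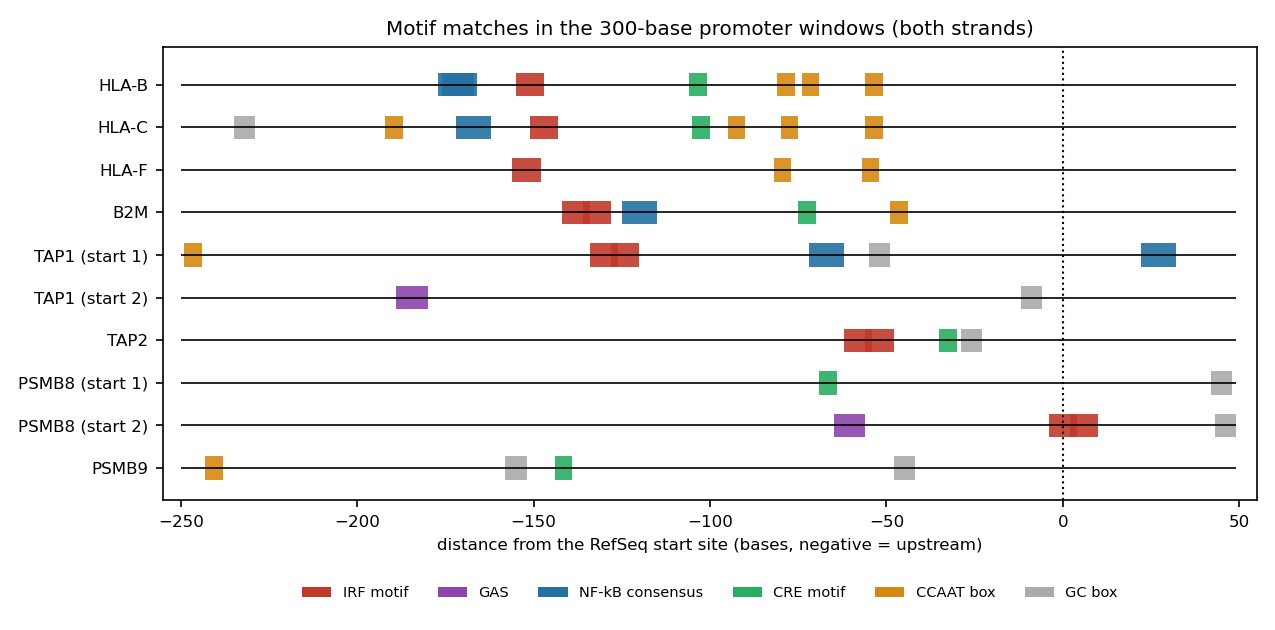
Motif matches (colored blocks, both strands) along the 10 promoter windows, by distance in bases from the RefSeq start site at 0, with negative values upstream. The IRF block of HLA-B, HLA-C and HLA-F lies at about the same distance, with first bases at -155, -151 and -156. The window of PSMB9 has no IRF or NF-kB block.

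Summed over the 9 genes, CPM without TMM scaling ran from 1470 to 1579 in the Prol libraries and from 3054 to 3261 in the Sen(IR) libraries. Under UK5099 the sum was 2377 to 2495 and under CTPI2 it was 2846 to 3004, so no groups overlapped. B2M was the most abundant per length in every group and HLA-F the least. On the scale of CPM per kb of the MANE Select transcript, the Sen(IR) levels were 1605 ± 35.9 (SD, n = 3) for B2M, 358 ± 16.5 for HLA-C, 269 ± 16.5 for HLA-B and 191 ± 7.67 for HLA-E. TAP1 followed at 43.1 ± 3.31, PSMB8 at 25.0 ± 0.458, TAP2 at 13.6 ± 0.586, PSMB9 at 4.36 ± 0.407 and HLA-F at 0.893 ± 0.231. Neighbors in this order differed by more than the sum of their SDs.

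The order changed in 2 places between groups. In Prol, PSMB8 (23.9 ± 2.73 CPM per kb) stood above TAP1 (18.3 ± 1.01). In Sen(IR)+UK5099, HLA-E (148 ± 1.27) stood above HLA-B (124 ± 8.55). Levels of different HLA genes carry an error not measured here, because these genes are polymorphic and reads of an allele unlike the reference may go uncounted. Of the 50-base windows in the MANE Select transcript, 6.76% in HLA-C, 6.16% in HLA-E, 2.56% in HLA-B and 1.89% in HLA-F also occur in another gene. At 150 bases, the read length, none does. Only exact matches were counted, and genes that overlap the given gene were left out. Exons of other genes overlap 41.96% of the HLA-F transcript, 35.85% of TAP2, 23.70% of HLA-B and 21.49% of TAP1 (the antisense gene PSMB8-AS1), and whether the counting used strand is not given in the sources used here, so those counts are uncertain to that extent.

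**Figure D2:**
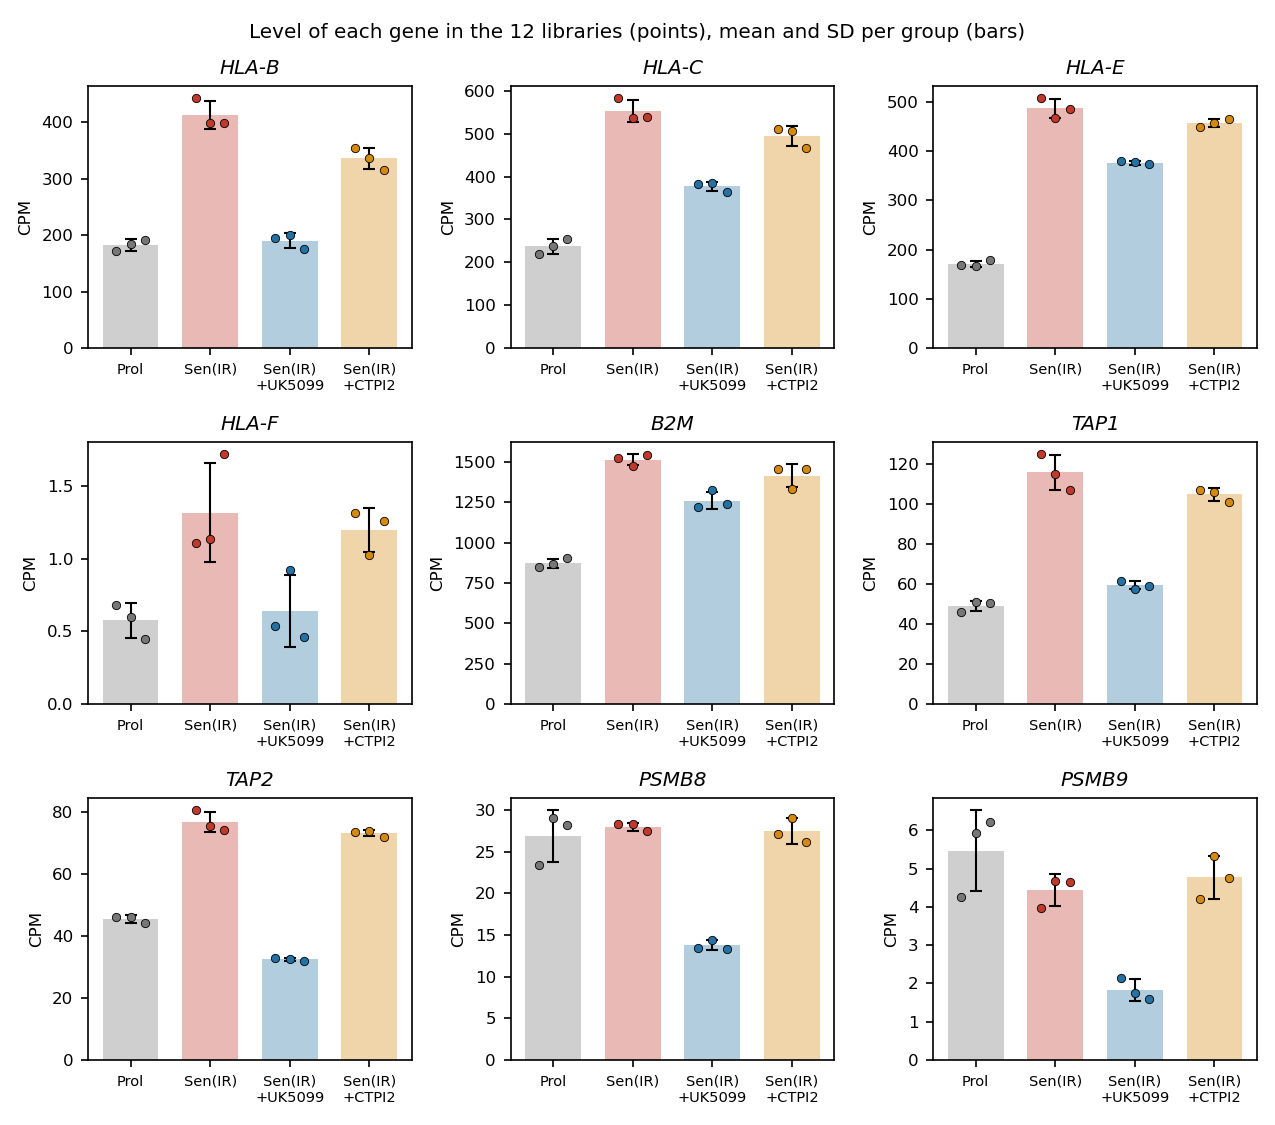
Level of each of the 9 genes in CPM on a linear axis from 0; points are the 12 libraries, bars the group means and whiskers the SD (n = 3). HLA-B in Sen(IR)+UK5099 (175 to 200 CPM) lies beside Prol (171 to 192), and PSMB8 and PSMB9 are low in Sen(IR)+UK5099 alone.

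The comparison of Sen(IR) with Prol asks which genes differ between irradiated senescent and proliferating cells. A gene was called at a Benjamini-Hochberg adjusted p under 0.05 over all genes tested, from edgeR's quasi-likelihood test, with an absolute log2 fold change over 0.5. Higher in Sen(IR) were 7 of the 9 genes, and none was lower, where 24.8% of all genes tested were called higher and 22.4% lower. The median log2 fold change of the 9 was 1.18, against 0.01 over all genes tested. In 7 of the 9 the groups did not overlap, as in 70.9% of all genes.

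All 4 heavy chains among the 9 genes rose. HLA-E stood at 168, 167 and 179 CPM in Prol and at 507, 468 and 485 in Sen(IR). The groups lay far apart, and the log2 fold change of 1.51 (SE 0.0483, adjusted p = 1.92e-17) was the largest of the 9. HLA-C had 219, 237 and 254 CPM in Prol and 582, 537 and 539 in Sen(IR). Its log2 fold change was 1.22 (SE 0.0567, adjusted p = 1.27e-14). HLA-B had 171, 184 and 192 CPM in Prol and 442, 398 and 398 in Sen(IR), a log2 fold change of 1.18 (SE 0.0623, adjusted p = 1.33e-13). For both classical chains the lowest Sen(IR) library was above the highest Prol library. HLA-F was scarce, with 12 to 16 counts in the Prol libraries and 24 to 35 in Sen(IR). It rose by 1.20 on the log2 scale (SE 0.343, adjusted p = 0.00388), with a 95% interval of 0.48 to 1.91.

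The light chain rose as well. B2M had 848, 866 and 904 CPM in Prol and 1522, 1476 and 1542 in Sen(IR), which do not overlap. Its log2 fold change was 0.79 (SE 0.0498, adjusted p = 2.74e-12), inside the wide interval of HLA-F and below the intervals of HLA-B, HLA-C and HLA-E. HLA-B, HLA-C, HLA-E and HLA-F were summed and divided by B2M on the per-kb scale within each library, with other heavy chains left out. This ratio was 0.356, 0.370 and 0.376 in Prol and 0.536, 0.506 and 0.489 in Sen(IR). All Sen(IR) libraries were therefore higher in this ratio, for which no test was run.

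Both subunits of the peptide pump rose. TAP1 had 46.0, 50.9 and 50.4 CPM in Prol and 125, 115 and 107 in Sen(IR), with no overlap. The log2 fold change was 1.24 (SE 0.0620, adjusted p = 4.96e-14). TAP2 went from 46.2, 46.2 and 44.2 CPM to 80.6, 75.5 and 74.4, a log2 fold change of 0.76 (SE 0.0549, adjusted p = 3.69e-11). The TAP1 to TAP2 ratio per kb, chosen after these values were seen, averaged 2.27 ± 0.159 (SD, n = 3) in Prol and 3.17 ± 0.120 in Sen(IR).

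Of the immunoproteasome subunits PSMB8 and PSMB9, neither was called. PSMB8 had 23.4, 29.1 and 28.2 CPM in Prol and 28.4, 28.3 and 27.5 in Sen(IR), so the Prol libraries span the Sen(IR) values. The log2 fold change was 0.06 (95% interval -0.11 to 0.23, adjusted p = 0.517), and it changed sign to -0.0295 without Prol replicate 1. PSMB9, with 4.26, 5.92 and 6.21 CPM in Prol and 3.96, 4.69 and 4.66 in Sen(IR), also overlapped (log2 fold change -0.31, 95% interval -0.65 to 0.04, adjusted p = 0.104). The PSMB9 value moved between -0.454 and -0.201 when single libraries were left out, and without Prol replicate 1, at -0.454, its adjusted p was 0.0188.

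The second question was how these genes differ between senescent cells kept in UK5099 and Sen(IR). Pyruvate import itself was not measured in these libraries. Against Sen(IR), 7 of the 9 were lower with UK5099 and none was higher, where 12.1% of all genes tested were called lower and 8.76% higher. HLA-E and B2M passed the adjusted p but not the limit on the fold change. The median log2 fold change was -1.02 for the 9 and 0.01 for all genes tested. The groups did not overlap for any of the 9, against 56.6% of all genes. The summed fibroblast markers were also lower in these libraries, at 10544 to 10987 CPM against 19845 to 20411. Of the 8 markers, COL1A1, COL1A2, COL3A1, THY1 and VIM were lower in every UK5099 library than in any Sen(IR) library, VIM from 3027 to 3132 CPM down to 2707 to 2889, while PDGFRB, DCN and LUM overlapped.

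Among the heavy chains, HLA-B had 194, 200 and 175 CPM with UK5099 against 442, 398 and 398 in Sen(IR). It fell by 1.12 on the log2 scale (SE 0.0622, adjusted p = 1.48e-12). HLA-C, with 382, 384 and 364 CPM, fell by 0.55 (SE 0.0558, adjusted p = 3.46e-08), near the limit. HLA-E had 379, 377 and 373 CPM, all under the lowest Sen(IR) library at 468, and its log2 fold change of -0.37 (SE 0.0469, adjusted p = 9.77e-07) was under the limit. The HLA-B to HLA-C ratio per kb, chosen after these values were seen, was 0.750 ± 0.0113 (SD, n = 3) in Sen(IR) and 0.505 ± 0.0211 with UK5099.

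HLA-F had 13, 25 and 12 counts with UK5099 against 25, 24 and 35 in Sen(IR), which are 0.538, 0.927 and 0.465 CPM against 1.11, 1.14 and 1.72. It was called lower (log2 fold change -1.02, SE 0.334, adjusted p = 0.0161). That call rests on few reads: the adjusted p was 0.0971 without Sen(IR) replicate 3, 0.0569 without Sen(IR)+UK5099 replicate 1 and 0.0736 without Sen(IR)+UK5099 replicate 3. B2M had 1222, 1324 and 1238 CPM with UK5099, all below Sen(IR), and its log2 fold change of -0.26 (SE 0.0494, adjusted p = 1.51e-04) did not reach the limit.

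Both transporter subunits fell. TAP2 had 33.0, 32.6 and 32.1 CPM with UK5099 against 80.6, 75.5 and 74.4 in Sen(IR), a fall of 1.24 (log2 fold change -1.24, SE 0.0561, adjusted p = 4.12e-14). TAP1 had 61.5, 57.6 and 59.0 CPM against 125, 115 and 107 (log2 fold change -0.96, SE 0.0611, adjusted p = 1.49e-11). In both genes the UK5099 libraries were tightly grouped and well below Sen(IR). The TAP1 to TAP2 ratio per kb was 3.83 ± 0.106 (SD, n = 3) with UK5099.

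PSMB8 and PSMB9, not called between Sen(IR) and Prol, fell with UK5099. PSMB8 had 13.5, 14.4 and 13.3 CPM with the inhibitor and 28.4, 28.3 and 27.5 without it (log2 fold change -1.03, SE 0.0851, adjusted p = 1.45e-09). PSMB9 had 2.15, 1.74 and 1.59 CPM against 3.96, 4.69 and 4.66, and its log2 fold change of -1.28 (SE 0.189, adjusted p = 8.21e-06) lay within its SE of the TAP2 value. Its libraries held 41 to 52 counts with UK5099 and 89 to 99 in Sen(IR).

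**Figure D3:**
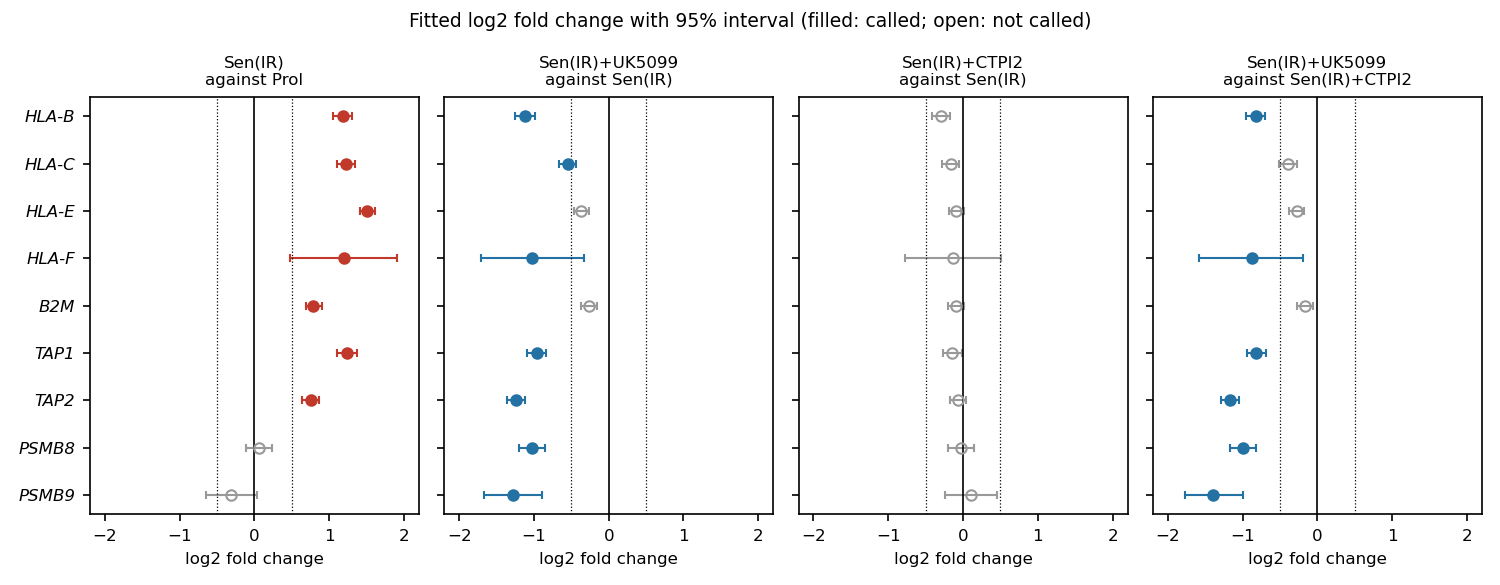
Fitted log2 fold change of each gene in 4 comparisons, with its 95% interval; filled points were called higher (red) or lower (blue), open points were not called, and dotted lines mark the limit of 0.5. The CTPI2 panel holds open points only, and HLA-F has the widest intervals because of its low counts.

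Sen(IR)+CTPI2 was compared with Sen(IR) in the same way, and citrate export itself was not measured in these libraries. With CTPI2, 0 of the 9 genes were called against Sen(IR) by edgeR and 0 by DESeq2, where edgeR called 0.148% of all genes tested lower and 0.0185% higher. The log2 fold change was below 0 for 8 of the 9, with a median of -0.10, against a median of 0.00 over all genes tested. With the fold change limit and the adjustment both dropped, 3 of the 9 (HLA-B, HLA-C and TAP1) had an unadjusted p under 0.05, against 7.27% of all genes tested. The groups did not overlap in 6 of the 9, against 15.1% of all genes, and those 6 were lower with CTPI2. HLA-B had 354, 337 and 316 CPM with CTPI2, below each Sen(IR) library (log2 fold change -0.30, 95% interval -0.42 to -0.17, adjusted p = 0.0239), and it alone of the 9 passed the adjusted p. Without any one of those 6 libraries other than Sen(IR)+CTPI2 replicate 1, the adjusted p of HLA-B was above 0.05, at 0.0556 to 0.298. HLA-C was at -0.16 (95% interval -0.28 to -0.05, adjusted p = 0.379) and TAP1 at -0.15 (95% interval -0.27 to -0.02, adjusted p = 0.561).

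The intervals bound how large a difference CTPI2 could have made and gone uncalled. They reached from -0.19 to 0.01 for HLA-E, from -0.20 to 0.01 for B2M and from -0.18 to 0.04 for TAP2. For PSMB8 the interval was -0.20 to 0.14 and for PSMB9 -0.24 to 0.45, so a difference past the limit lies outside them. The HLA-F interval, -0.78 to 0.51, leaves room for such a difference at this depth.

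UK5099 and CTPI2 share the Sen(IR) libraries as control, and the difference between them was therefore tested directly. Lower with UK5099 than with CTPI2 were 6 of the 9 genes, and none was higher, where 11.7% of all genes tested were called lower and 8.20% higher. PSMB9 differed by -1.39 on the log2 scale (SE 0.185, adjusted p = 2.44e-06), with 1.59 to 2.15 CPM against 4.21 to 5.32. TAP2 was at -1.17 (SE 0.0560, adjusted p = 1.34e-13), with 32.1 to 33.0 CPM against 72.1 to 74.1, and PSMB8 was 1.99-fold lower (adjusted p = 2.48e-09). HLA-B and TAP1 both differed by -0.82 (adjusted p = 3.36e-10 and 2.99e-10). HLA-C (-0.39), HLA-E (-0.28) and B2M (-0.17) passed the adjusted p under the fold limit. The HLA-F call (-0.88, adjusted p = 0.0357) was lost in DESeq2, at an adjusted p of 0.0755, without the filter on low counts (0.0531) and without any of 4 libraries: Sen(IR)+UK5099 replicates 1 (0.107) and 3 (0.138) and Sen(IR)+CTPI2 replicates 1 (0.0981) and 3 (0.0793).

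The treated cells were also compared with Prol. With UK5099, 3 of the 9 were higher than in Prol and 2 lower, where 26.9% of all genes tested were called higher and 26.2% lower. HLA-E (1.14, SE 0.0479, adjusted p = 1.69e-15), HLA-C (0.67, adjusted p = 3.51e-10) and B2M (0.53, adjusted p = 2.08e-09) were the higher genes. PSMB8 (-0.97, adjusted p = 7.14e-10) and PSMB9 (-1.59, adjusted p = 5.83e-08) were the lower, with no overlap between groups. HLA-B overlapped Prol (0.06, 95% interval -0.07 to 0.19). TAP1 (0.27) and TAP2 (-0.48) did not overlap Prol and were under the limit. The B2M call was lost without Sen(IR)+UK5099 replicate 2, at a log2 fold change of 0.495, and TAP2 was called lower without Prol replicate 3, at -0.507. With CTPI2, 7 of the 9 were higher than in Prol and none lower, where 24.8% of all genes tested were called higher and 21.9% lower. Those 7 were at 0.69 for TAP2, 0.70 for B2M, 0.88 for HLA-B, 1.06 for HLA-C and HLA-F, 1.09 for TAP1 and 1.42 for HLA-E.

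As a description, the mean CPM with each inhibitor can be set against the distance between Prol and Sen(IR), using the same Prol and Sen(IR) libraries for both. With UK5099, 3.23% of that distance remained for HLA-B, which moved to 0.769% without Prol replicate 1 and to 6.43% without Sen(IR)+UK5099 replicate 3. It was 15.4% for TAP1, 44.3% for HLA-C, 60.7% for B2M and 65.0% for HLA-E, and TAP2 lay below its Prol level (-41.5%). With CTPI2 the remainder was 66.6% for HLA-B and 81.3 to 90.5% for HLA-C, HLA-E, B2M, TAP1 and TAP2.

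The immunoproteasome can be read as the ratio of each inducible subunit to the constitutive subunit it replaces, on the per-kb scale within a library and with no test. PSMB8 to PSMB5 lay between 0.130 and 0.133 under UK5099, against 0.180 to 0.226 in Prol, 0.208 to 0.215 in Sen(IR) and 0.197 to 0.213 under CTPI2. PSMB9 to PSMB6 averaged 0.0599 ± 0.0104 (SD, n = 3) in Prol, 0.0625 ± 0.00701 in Sen(IR), 0.0376 ± 0.00698 with UK5099 and 0.0656 ± 0.00654 with CTPI2. In both ratios the UK5099 libraries were below all others. PSMB10 to PSMB7 stood at 0.0466 ± 0.00762 in Prol, 0.123 ± 0.0127 in Sen(IR), 0.0652 ± 0.00533 with UK5099 and 0.117 ± 0.00487 with CTPI2. A ratio also moves with its constitutive subunit. Mean CPM in Prol and Sen(IR) was 138 and 102 for PSMB7, 74.0 and 57.6 for PSMB6, and 122 and 123 for PSMB5.

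**Figure D4:**
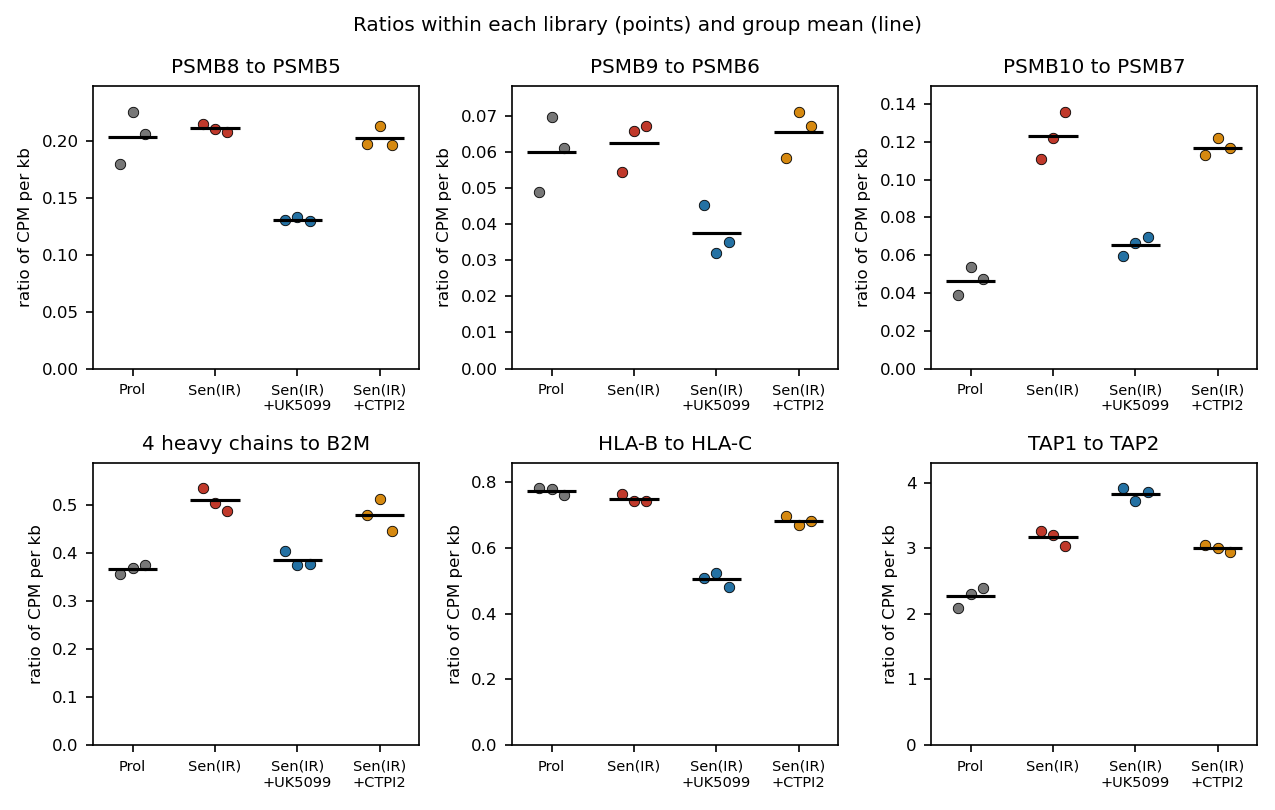
Ratios of CPM per kb within each of the 12 libraries (points) with the group mean (line), on axes from 0. PSMB10 to PSMB7 is higher in Sen(IR) than in Prol, whereas PSMB8 to PSMB5 and PSMB9 to PSMB6 overlap there and are lowest with UK5099.

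Other genes of the pathway were taken from lists by function. Their counts stand against the shares of all genes called, which were 24.8% higher and 22.4% lower in Sen(IR) against Prol and 12.1% lower with UK5099 against Sen(IR). Of 10 genes of peptide loading and trimming, 2 rose in Sen(IR) against Prol, near the share of all genes called higher: TAPBP (tapasin, which holds TAP to the heavy chain; 1.13, adjusted p = 4.26e-15) and TAPBPL (its relative TAPBPR; 1.42, adjusted p = 1.85e-10). With UK5099, 4 of the 10 fell against Sen(IR), where 12.1% of all genes did: ERAP2 (-1.08, adjusted p = 2.52e-05) and ERAP1 (-1.07, adjusted p = 2.96e-11), which trim peptides in the endoplasmic reticulum, TAPBPL (-0.84) and the chaperone CALR (-0.52). ERAP1 stood at 85.0, 89.6 and 87.6 CPM in Sen(IR) and 46.2, 39.2 and 39.8 with UK5099. Over these 10 genes the median log2 fold change was -0.05 in the comparison with Prol and -0.41 under UK5099.

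Of 8 proteasome subunits and activators, PSMB10 alone rose in Sen(IR) (0.97, adjusted p = 3.53e-07), where 24.8% of all genes did. With UK5099, 4 of the 8 fell, against 12.1% of all genes: PSMB10 (-1.10, adjusted p = 1.95e-07), PSME2, a subunit of the PA28 activator (-0.88, adjusted p = 2.84e-09), the constitutive subunit PSMB6 and the assembly factor POMP (both -0.54). Exons of another gene overlap 56.09% of the PSMB10 transcript. The list's medians were -0.01 and -0.48.

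Of 7 other class I and class I-like genes, 6 could be tested and 4 rose in Sen(IR), where 24.8% of all genes did. CD1D, which presents lipids, rose by 3.07 (SE 0.257, adjusted p = 4.37e-10), from 8 to 11 counts per library in Prol to 61 to 86. MR1, which presents microbial vitamin metabolites, rose by 1.64, FCGRT, the neonatal Fc receptor, by 1.06, and PROCR, the protein C receptor, by 0.67. With UK5099, 2 of the 6 fell, against 12.1% of all genes: CD1D (-2.24, adjusted p = 4.80e-08) and PROCR (-0.98, adjusted p = 1.08e-08). MR1 (0.31) and FCGRT (0.08) were not called with UK5099. The medians were 0.86 and -0.22.

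Of 9 transcriptional regulators of class I genes, 1 rose in Sen(IR) and 3 fell, where 24.8% and 22.4% of all genes did. IRF1, an interferon-induced activator, rose by 0.99 (adjusted p = 1.16e-12). RFXAP (-0.69) and RFXANK (-0.56), subunits of the RFX complex on MHC promoters, fell, as did CREB1 (-0.56), which binds the cyclic AMP response element. IRF1 had 37.4, 40.5 and 39.7 CPM in Prol, 79.9, 78.4 and 75.3 in Sen(IR), 35.5, 33.4 and 35.5 with UK5099 and 78.2, 82.5 and 74.8 with CTPI2. It was thus called lower with UK5099 against Sen(IR) (-1.16, adjusted p = 3.75e-13), together with NFKB1 (-0.57), which makes 2 of the 9 against 12.1% of all genes. NLRC5, the class I transactivator, was named after its values were seen; it had 15.8 to 18.6 CPM in Prol and 11.4 to 15.8 in Sen(IR) and was not called (-0.38, adjusted p = 0.00561). The medians were -0.15 and -0.28.

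Of 12 class II presentation genes, 7 passed the filter. In Sen(IR), 3 rose and 2 fell, against 24.8% and 22.4% of all genes: HLA-DMB (2.56) and HLA-DMA (1.00), which together edit class II peptides, and the invariant chain CD74 (1.15) were higher, and HLA-DPB1 (-1.98) and HLA-DPA1 (-1.06) lower. With UK5099, HLA-DMA was higher (0.53, where 8.76% of all genes were called higher) and CD74 lower (-0.75, against 12.1%). HLA-DMA had a mean of 7.44 CPM in Sen(IR) and the other tested genes of the list at most 1.75, and the medians were 0.66 and 0.02. The rise of HLA-DMB (SE 0.416) rests on few reads, with 2, 6 and 4 counts in Prol and 24, 18 and 21 in Sen(IR). With CTPI2, none of the tested genes of these 5 lists was called against Sen(IR) by edgeR. An unadjusted p under 0.05 was found for 3 of the 10 genes of peptide loading and 1 of the 6 class I-like genes, against 7.27% of all genes. It was found for 0 of the 8 proteasome genes, 0 of the 9 regulators and 0 of the 7 class II genes tested.

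**Figure D5:**
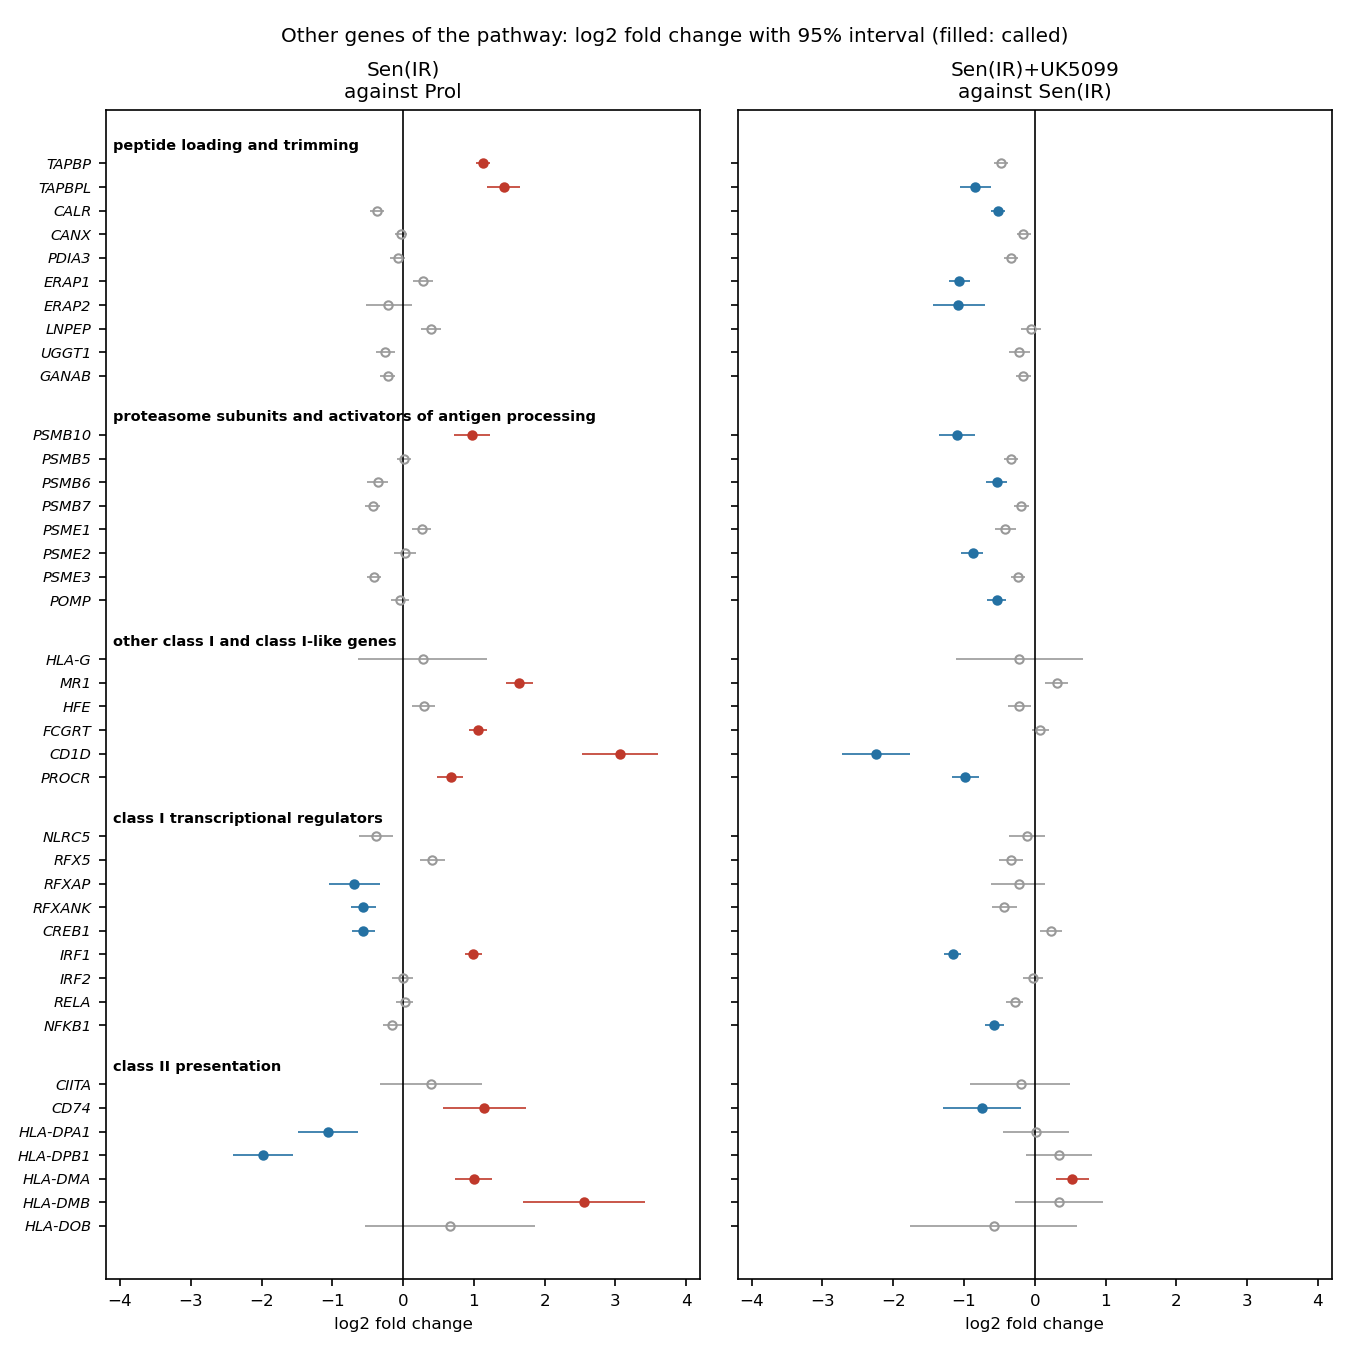
Fitted log2 fold change with its 95% interval for the tested genes of the 5 pathway lists, for Sen(IR) against Prol (left) and Sen(IR)+UK5099 against Sen(IR) (right); filled points were called higher (red) or lower (blue). CD1D is the most changed gene in both panels, at 3.07 and -2.24, and all tested peptide loading and proteasome genes lie below 0 on the right.

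The 9 genes did not share a single pattern over the 12 libraries. Pearson's r of log2 CPM, which mainly reflects the 4 group means, was 0.99 for HLA-E and B2M, 0.98 for HLA-C and B2M, 0.98 for HLA-B and TAP1 and 0.95 for PSMB8 and PSMB9, whereas it was -0.26 for HLA-E and PSMB9. The genes most like the mean of the 9 were OLR1 (r = 0.996), RCN1 (0.995), PLK2 (0.995), CXCL1 (0.994) and TMEM132A (0.993). For single genes the closest were LY6E for HLA-C (0.996), SIL1 for HLA-E (0.997), SEC61A2 for HLA-F (0.949), ERLEC1 for B2M (0.995), MX1 for TAP1 (0.996), CCL2 for TAP2 (0.997), IL15RA for PSMB8 (0.986) and BGN for PSMB9 (0.973). These values describe 12 libraries that share 4 group means.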

How the data were processed

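RNA from MRC5 cells (12 libraries, paired reads of 150 bases) was trimmed with Trimmomatic 0.36, aligned to GRCh38 with STAR 2.5.2b and counted with featureCounts (Subread 1.5.2), according to the submitters' processing notes. The authors deposited raw counts per gene for 57500 genes, of which 23043 had no count in any library. The annotation version and strand setting are not given in the sources used here.

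All 12 libraries were fitted at once by edgeR (4.0.16, R 4.3.3) with group means, TMM scaling and its quasi-likelihood test, after filterByExpr had kept 16251 genes holding 99.9% of the counts. The Benjamini-Hochberg adjustment ran over those genes. The SE is the absolute log2 fold change divided by the square root of F. The common dispersion of 0.00374 corresponds to 6.12% variation between replicates. The script was tested on simulated data. Replicate numbers were used only in an alternative fit, since same-numbered libraries did not deviate together.

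The 9 genes and the lists were chosen with earlier results of these data known. Genes named from a list were the called genes, up to the 4 largest changes per list and comparison; exceptions are marked. Results of 2 further genes of these lists are not reported here, and the lists were counted without them. Genes of like pattern needed a mean log2 CPM above 1. Alternatives were DESeq2 1.42.0, upper-quartile or RLE scaling, omitting the filter, the compared groups only, a replicate block, unadjusted p, fold limits of 0 and 1, and leaving out each library. Gene positions and MANE Select lengths came from GENCODE (GRCh38), with 56410 of the 57500 IDs matched, and promoter windows from RefSeq (GRCh38.p14).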

Additional observations from a re-analysis of the deposited data

How the results depend on the processing

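DESeq2, upper-quartile or RLE scaling, omission of the low-count filter, a fit of only the 2 compared groups, the unadjusted p and the replicate block each left the count of called genes in every comparison within 1.5 times the reported count. Upper-quartile scaling moved the median of all genes by 0.121, 0.140 and 0.111 in the comparisons with Prol of untreated, UK5099-treated and CTPI2-treated senescent cells. A log2 fold change limit of 1 left 5 of the 9 genes called in Sen(IR) against Prol, without B2M and TAP2. It left 5 for UK5099 against Sen(IR), without HLA-C and TAP1. Called at that limit were also 2 between UK5099 and CTPI2, 2 between UK5099 and Prol and 4 between CTPI2 and Prol. The share of all genes called at that limit was not computed. With no limit, 1 was called between CTPI2 and Sen(IR). Each of these moves follows from the limit itself. When each library was left out in turn, 7 genes stayed called for Sen(IR) and for CTPI2 against Prol, 6 to 7 for UK5099 against Sen(IR), 5 to 6 for UK5099 against CTPI2 and 4 to 6 for UK5099 against Prol, and 0 for CTPI2 against Sen(IR).

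Leaving out a library turned the sign of log2 fold changes that were never called. They ranged from -0.0295 to 0.118 for PSMB8 in Sen(IR) against Prol, from -0.247 to 0.0923 for HLA-F and from -0.0753 to 0.00489 for PSMB8 in CTPI2 against Sen(IR), from -0.191 to 0.366 for HLA-F in UK5099 against Prol, and from -0.0598 to 0.0878 for PSMB8 in CTPI2 against Prol. The cause was not tested.

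With the replicate block the counts were 7, 7, 0, 6, 5 and 7 in the order Sen(IR) against Prol, UK5099 against Sen(IR), CTPI2 against Sen(IR), UK5099 against CTPI2, UK5099 against Prol and CTPI2 against Prol, and no call changed. Same-numbered libraries of different groups had correlations of their deviations from the group means of -0.051 to 0.042, so the numbers were not taken as pairs. The counts over the pathway lists were run under the same alternatives, chosen after seeing the data, and moved by over 1.5 times only under the other fold change limits. Depth limits HLA-F, at 12 to 35 counts per library, more than any other of the 9 genes.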
